A study of Homo sapiens with 60 samples.

Results

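Guibi-tang and Saengmaek-san are multi-herb decoctions of Korean traditional medicine, and their 70% ethanol extracts were set against each other in HepG2 cells at 500 ug/mL for 24 h. The comparison rests on 6 of the 60 RNA sequencing libraries of the series, 3 from Guibi-tang and 3 from Saengmaek-san, chosen by extract name and dose in the sample labels. HepG2 is an established human liver cancer line that makes many liver plasma proteins. It was the line used for every library, with no genetic change in either group. Both groups carry the same set number, extract type and time, so they differ in the labels by the decoction alone. Both decoctions were also given at 20 and 100 ug/mL, again with 3 libraries each, and these 12 libraries show at which dose a difference appears. Vehicle (DMSO, 0.1% in the labels and 2% in the design text) has a set label of its own, so against it a treatment and its set cannot be told apart, and it is used here only as a level. The labels do not say whether replicates came from separate cultures, so p-values reflect library-to-library spread, and that may be technical only.

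Liver cells meet plant compounds with sensors that act on transcription. NRF2, released when electrophiles modify its inhibitor KEAP1, switches on enzymes that reduce or conjugate reactive molecules and make glutathione, while the aryl hydrocarbon receptor (AHR) binds flat aromatic ligands and induces CYP1A1. The sterol-sensing SREBP factors set the level of cholesterol and fatty acid synthesis. HepG2 also divides quickly, so its RNA holds a large set of genes that are transcribed towards mitosis.

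The 6 libraries held 20.3 to 25.4 M counts. Guibi-tang replicate 2 stood apart: 96 of 9403 genes of at least 10 CPM (counts scaled to library size) lay over 1.5-fold from the other 2 libraries of its group, against 4 to 9 genes for each of the other 5 libraries. Its values also followed gene length, with a slope of 0.138 log2 units per doubling of length, against slopes between -0.018 and -0.002 in the other 5. Counts of list members that moved by over 1.5 times without that library are given with and without it. The hepatocyte markers ALB, AFP, APOA1, APOB, TTR, HNF4A, SERPINA1, FGB and TF were detected in all 6 libraries. Their sum was 37240 to 39050 CPM with Guibi-tang and 48935 to 52047 CPM with Saengmaek-san (marker sums are without TMM scaling). Of the markers of other cells, 3 in each list were at 0 in all 6 libraries (PTPRC, CD3E and HBB for blood, COL1A2, DCN and LUM for stroma, TEK, ERG and EMCN for endothelium, SFTPC, SCGB1A1 and NKX2-1 for lung and gut). The summed markers were 705 to 794 CPM with Guibi-tang and 1235 to 1297 CPM with Saengmaek-san for the 10 blood markers, of which LYZ gave nearly all, and 60.6 to 71.3 CPM with Guibi-tang and 72.7 to 75.5 CPM with Saengmaek-san for the 10 stromal markers. They were 3.76 to 3.99 CPM with Guibi-tang and 5.47 to 5.76 CPM with Saengmaek-san for the 8 endothelial markers, and 365 to 383 CPM with Guibi-tang and 443 to 449 CPM with Saengmaek-san for the 10 lung and gut markers. What part these sums have in the results was not tested. Mitochondrially encoded genes held 11.6% to 12.5% of counts with Guibi-tang and 13.2% to 13.9% with Saengmaek-san.

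At 500 ug/mL the decoctions differed at many genes, mostly by small steps. Most NRF2 targets were higher with Guibi-tang, and most genes of mitosis, of cholesterol and fatty acid synthesis and of secreted plasma proteins were lower. Of 16982 tested genes, 5744 (33.8%) passed a Benjamini-Hochberg adjusted p of 0.05 in the edgeR quasi-likelihood test, and such genes are named called below. They divided into 2865 higher (16.9%) and 2879 lower (17.0%) with Guibi-tang. Their median absolute log2 difference was 0.32, and 224 (1.32%) were at least 2-fold higher and 199 (1.17%) at least 2-fold lower. With only genes of a mean of at least 1 CPM tested, the 2-fold counts were 103 higher and 97 lower. In 3687 genes (21.7%) all 3 Guibi-tang libraries lay above all 3 Saengmaek-san libraries, and in 3591 (21.1%) all lay below. Without Guibi-tang replicate 2, 4868 genes were called, 2475 higher and 2393 lower. Levels below are CPM on TMM-scaled library sizes, and differences are log2, Guibi-tang minus Saengmaek-san.

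**Figure D1:**
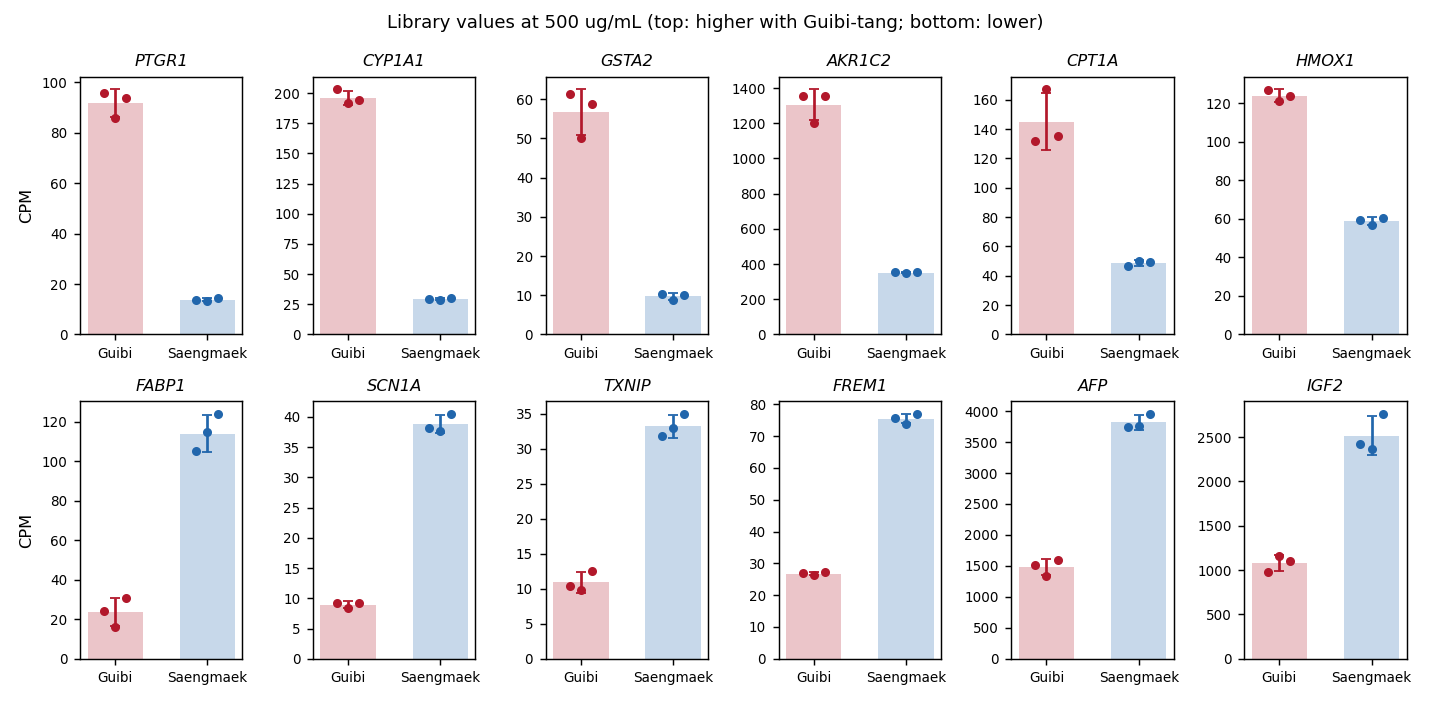
Level in each library at 500 ug/mL, in CPM, of 6 genes higher (top) and 6 lower (bottom) with Guibi-tang (left, red) than with Saengmaek-san (right, blue). Points are the 3 libraries, bars the mean and whiskers the SD. In none of the 12 panels do the groups overlap, which was a condition for the highest and lowest genes, from which most panels come.

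Reductases and glutathione transferases were among the 14 highest called genes that had at least 5 CPM with Guibi-tang and groups that did not overlap. PTGR1 (ENSG00000106853, chr9:111549722-111599893 in GENCODE 29 on GRCh38, - strand) is an oxidoreductase of leukotriene B4, prostaglandins and reactive alkenals. It had 95.8, 85.7 and 93.9 CPM with Guibi-tang and 13.5, 13.3 and 14.4 CPM with Saengmaek-san, a log2 difference of 2.74 (SE 0.06, edgeR adjusted p = 2.1e-35). GSTA2, a glutathione transferase, had 61.2, 50.2 and 58.8 CPM with Guibi-tang and 10.2, 8.79 and 10.1 CPM with Saengmaek-san, a difference of 2.55. AKR1C2, an aldo-keto reductase of steroids and carbonyls, had 1355, 1204 and 1355 CPM with Guibi-tang and 354, 348 and 355 CPM with Saengmaek-san, a difference of 1.89. These genes were chosen for a large difference between groups that did not overlap, and libraries of a group stayed close. AKR1C1 was higher by 1.68 and GSTA1 by 1.65, and since AKR1C1 with AKR1C2, and GSTA1 with GSTA2, are near copies, the division of reads within each pair is uncertain.

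The NRF2 list, which holds these aldo-keto reductases, moved upward as a whole. Of its 27 tested members 23 were higher and 1 lower, with a median difference of 0.64, against 16.9% higher and a median of 0.00 over all tested genes. AKR1B10, a reductase of retinal and other aldehydes, was higher by 1.32 (adjusted p = 8.1e-24). SQSTM1, the autophagy receptor p62 that also binds KEAP1, had 512, 499 and 520 CPM with Guibi-tang and 223, 227 and 225 CPM with Saengmaek-san, a difference of 1.18. OSGIN1 rose by 1.18, the drug-conjugate exporter ABCC3 by 1.15, the thioredoxin reductase TXNRD1 by 1.05 and GCLM, a subunit of the enzyme that starts glutathione synthesis, by 0.78. NQO1, a quinone reductase often read as the marker of this response, differed by 0.26, with 702, 629 and 725 CPM with Guibi-tang and 563, 582 and 574 CPM with Saengmaek-san. The 1 lower member was GPX2, a glutathione peroxidase, at -0.22 (adjusted p = 0.00533), and without Guibi-tang replicate 2 it was -0.10 (adjusted p = 0.21). PGD, TKT and CBR1 did not pass the test, and without Guibi-tang replicate 2 CBR1 did, at 0.20 (adjusted p = 0.048). The cystine transporter SLC7A11 was higher by 0.44 (adjusted p = 0.012), and without Guibi-tang replicate 2 by 0.35 (adjusted p = 0.0946).

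NRF2 binds antioxidant response elements, whose core is TGACNNNGC. That motif, on either strand, was in 6 of 20 promoters of the list that RefSeq gives (250 bases before to 50 after the start), or 30%, and in 13.6% of all 27305 promoters. The promoters of TXNRD1 (chr12:104215529-104215828, + strand) and GCLM (chr1:93909381-93909680, - strand), from RefSeq on GRCh38.p14 and read 5′ to 3′ along the gene, are shown as examples in which the window holds it and the gene rose. Of the 6 members with the motif, TXNRD1, GCLM and PIR (0.34) rose, PGD and CBR1 did not pass the test, and GPX2 was lower. Capitals mark TGACNNNGC or its reverse complement.
TXNRD1: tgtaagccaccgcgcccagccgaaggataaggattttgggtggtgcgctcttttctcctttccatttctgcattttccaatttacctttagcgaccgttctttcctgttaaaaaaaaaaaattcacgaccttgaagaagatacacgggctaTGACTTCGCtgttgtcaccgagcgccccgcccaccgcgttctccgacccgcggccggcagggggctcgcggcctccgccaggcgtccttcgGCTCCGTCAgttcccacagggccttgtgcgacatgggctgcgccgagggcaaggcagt
GCLM: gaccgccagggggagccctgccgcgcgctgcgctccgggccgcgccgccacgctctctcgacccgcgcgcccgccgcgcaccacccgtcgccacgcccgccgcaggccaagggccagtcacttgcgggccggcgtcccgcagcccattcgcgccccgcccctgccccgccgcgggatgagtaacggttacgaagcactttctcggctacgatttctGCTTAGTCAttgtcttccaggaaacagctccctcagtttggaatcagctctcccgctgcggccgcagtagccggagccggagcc
A match of letters is a description and shows no binding.

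CYP1A1, the monooxygenase that AHR induces, was higher with Guibi-tang by 2.73 (SE 0.08, adjusted p = 5.7e-30). The gene (ENSG00000140465, chr15:74719542-74725610, - strand) had 203, 192 and 194 CPM with Guibi-tang and 29.7, 28.8 and 30.0 CPM with Saengmaek-san. In the AHR list 6 of 9 tested members were higher and 1 lower, with a median of 0.21, and without Guibi-tang replicate 2 the counts were 4 and 1. Apart from CYP1A1 the higher members were the AHR repressor AHRR (0.81, at about 1 CPM, and 0.63 at the least when 1 library was left out, with the call lost without Saengmaek-san replicate 3), the amino acid transporter SLC7A5 (0.44), NQO1 (0.26), the AHR partner ARNT (0.21) and TIPARP (0.17). Without Guibi-tang replicate 2 ARNT and TIPARP lost their calls (adjusted p = 0.063 and 0.129), and TIPARP lost its call without Saengmaek-san replicate 1 or 2 too (0.13 to 0.20). ALDH3A1, at under 1 CPM, was lower at -0.97 (adjusted p = 0.011), and leaving out replicate 1 of either decoction ended that call (-1.10 to -0.84 over the libraries left out). AHR itself differed by 0.10 and did not pass the test. Of 10 tested genes of the drug sensors PXR and CAR and their targets, 2 were higher and 2 lower (median -0.02). These counts are close to the shares over all tested genes, 16.9% higher and 17.0% lower. The sulfotransferase SULT2A1 rose by 0.91 and ALAS1, the first enzyme of heme synthesis, by 0.75. CYP3A7 (-0.32) and NR1I2 (-0.31), which encodes PXR itself, were lower. The CYP3A7 call was lost without Guibi-tang replicate 1 or 3 or Saengmaek-san replicate 2 (-0.41 to -0.27), by DESeq2 (-0.32) and without a filter (-0.33). CYP3A4, a main drug-metabolising enzyme of adult liver, was at 0.0819 to 0.421 CPM with Guibi-tang and 0.25 to 0.409 CPM with Saengmaek-san, and did not pass the test (adjusted p = 0.543).

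Genes of heme breakdown and iron storage were higher with Guibi-tang. HMOX1, heme oxygenase, which is also an NRF2 target, had 127, 121 and 124 CPM with Guibi-tang and 59.6, 56.8 and 60.3 CPM with Saengmaek-san, a difference of 1.08 (adjusted p = 1.0e-22). BLVRB, a biliverdin reductase, rose by 1.12 and HAMP, the iron hormone hepcidin, by 1.01. The ferritin heavy chain FTH1 rose by 0.67 and the light chain FTL by 0.35, and in FTL the groups overlapped because Guibi-tang replicate 2 (6401 CPM) lay below 2 Saengmaek-san libraries. The FTL call was lost with only the compared groups in the fit. In all, 9 of 13 iron genes were higher and 3 lower, against 16.9% and 17.0% over all tested genes. The lower ones were the plasma carriers transferrin (TF, -0.83) and ceruloplasmin (CP, -0.80) and the transferrin receptor TFRC (-0.16).

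**Figure D2:**
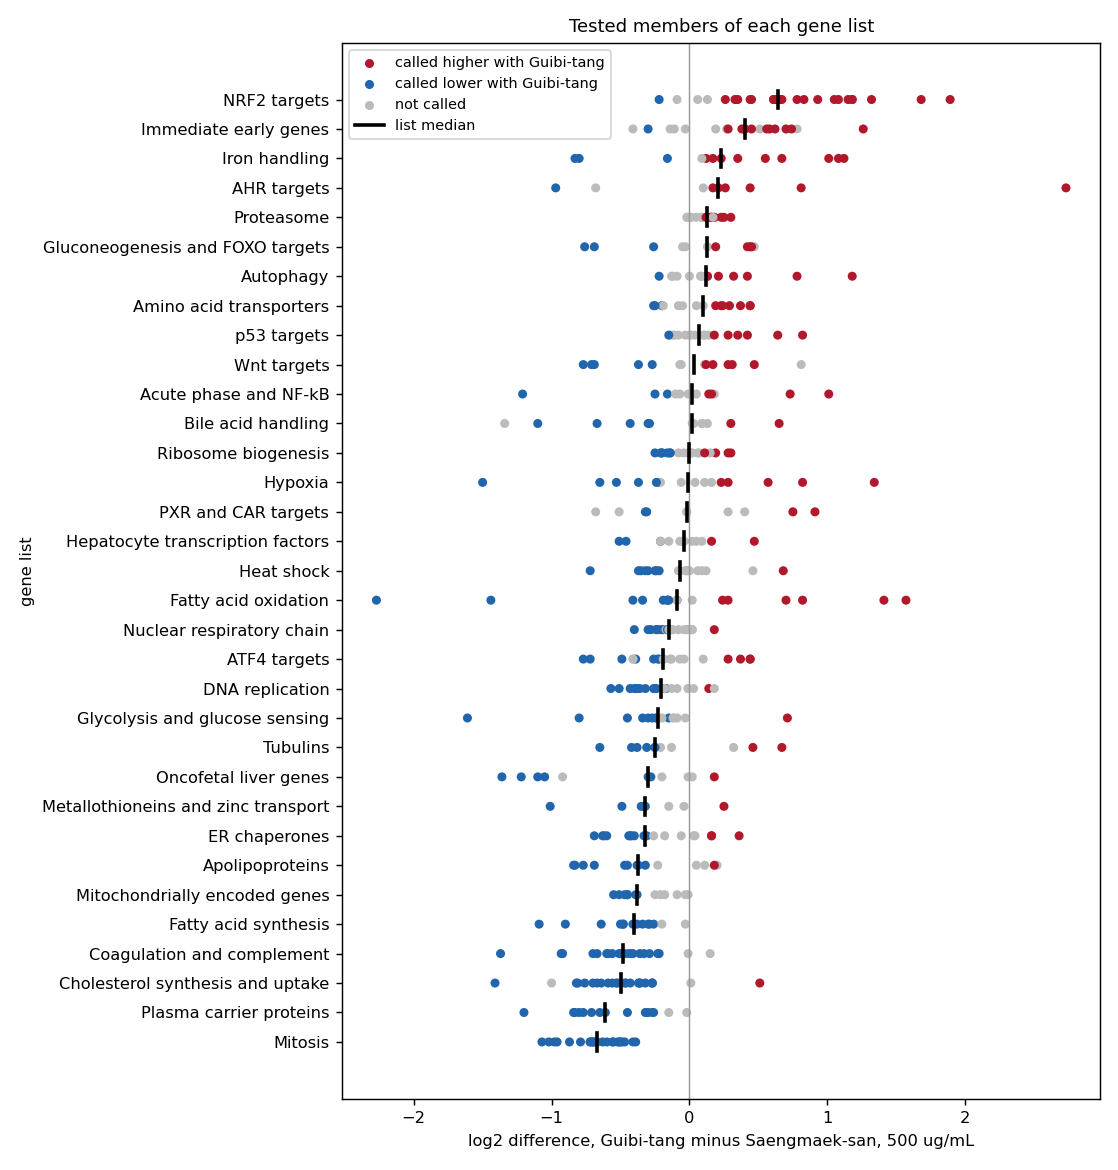
Log2 difference at 500 ug/mL (horizontal axis, Guibi-tang minus Saengmaek-san) of each tested member of 33 gene lists (rows, ordered by median). Red points were called higher, blue points called lower and grey points not called, and black ticks are medians. Medians run between 0.64 for NRF2 targets and -0.67 for mitosis, and 0 marks no difference.

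Every one of the 24 tested mitosis genes was lower with Guibi-tang, with a median of -0.67 and a range between -1.07 and -0.39, against 17.0% lower over all tested genes. In each of them the 3 Guibi-tang libraries lay below the 3 Saengmaek-san libraries, and all 24 were called lower without Guibi-tang replicate 2 as well. UBE2C, the ubiquitin-conjugating enzyme of the anaphase-promoting complex, had 25.3, 18.7 and 25.8 CPM with Guibi-tang and 47.5, 49.5 and 50.0 CPM with Saengmaek-san, a difference of -1.07. CCNB2, a cyclin of the mitotic kinase, was lower at -1.02 and TOP2A, the topoisomerase that separates sister DNA, at -0.98. PLK1, a mitotic kinase, had 146, 132 and 143 CPM with Guibi-tang and 281, 275 and 263 CPM with Saengmaek-san, a difference of -0.96 (adjusted p = 2.1e-22). The proliferation marker MKI67 differed by less, at -0.51. DNA replication genes moved less: 16 of 24 were lower and 1 higher, with a median of -0.21, and 14 and 0 without Guibi-tang replicate 2. The lowest were the thymidylate synthase TYMS (-0.57), the helicase subunit MCM7 (-0.51), the polymerase subunit POLA1 (-0.43) and the helicase subunit MCM5 (-0.40). Among p53 targets 6 of 18 were higher, 1 lower and 11 not called, with a median of 0.07. Over all tested genes 16.9% were higher, with a median of 0.00. GDF15, a stress cytokine, rose by 0.82 and CDKN1A, the cell cycle inhibitor p21, by 0.64 (adjusted p = 1.2e-08). The tubulins divided, with TUBA1B (-0.65) and TUBB (-0.42) among 6 of 11 that were lower, and TUBB6 (0.67) and TUBB2A (0.46) higher. In bulk RNA, fewer cells in mitosis and less of these messages per cell cannot be told apart.

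Genes transcribed towards mitosis often carry a cell cycle homology region (TTTGAA) and CCAAT boxes. On either strand TTTGAA was in 14 of 19 mitosis promoters in the RefSeq table (73.7%) and in 15.4% of all 27305, and CCAAT in 17 of 19 (89.5%) and in 35.7% of all. The promoters of CCNB2 (chr15:59104896-59105195, + strand) and TOP2A (chr17:40417847-40418146, - strand) are shown because both genes are among those with the largest decrease and their windows hold both motifs. Capitals mark the motifs on either strand, which do not overlap each other there.
CCNB2: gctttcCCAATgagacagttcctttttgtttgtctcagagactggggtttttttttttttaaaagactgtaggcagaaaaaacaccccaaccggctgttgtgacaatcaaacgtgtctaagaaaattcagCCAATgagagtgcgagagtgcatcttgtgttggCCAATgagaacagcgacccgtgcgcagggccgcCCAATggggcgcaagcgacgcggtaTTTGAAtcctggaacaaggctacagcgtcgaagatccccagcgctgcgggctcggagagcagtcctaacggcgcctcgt
TOP2A: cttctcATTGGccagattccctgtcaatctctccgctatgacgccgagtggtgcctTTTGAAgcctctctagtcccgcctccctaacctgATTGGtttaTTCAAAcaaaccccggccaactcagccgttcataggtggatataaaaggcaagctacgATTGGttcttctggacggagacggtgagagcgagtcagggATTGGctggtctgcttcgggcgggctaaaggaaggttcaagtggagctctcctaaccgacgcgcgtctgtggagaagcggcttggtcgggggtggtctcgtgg
The CCNB2 window holds 1 TTTGAA and 4 CCAAT, and the TOP2A window 2 TTTGAA and 4 CCAAT.

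Cholesterol synthesis was lower with Guibi-tang at nearly every enzyme. Of 24 genes 21 were lower and 1 higher, with a median of -0.50, against 17.0% lower and 16.9% higher over all tested genes. HMGCS1, which makes HMG-CoA (ENSG00000112972, chr5:43289395-43313512, - strand), had 271, 272 and 270 CPM with Guibi-tang and 465, 452 and 459 CPM with Saengmaek-san, a difference of -0.76 (adjusted p = 2.4e-14). The squalene synthase FDFT1 was lower at -0.82 and the farnesyl diphosphate synthase FDPS at -0.81. The higher member was the phosphomevalonate kinase PMVK (0.51). Of 14 fatty acid synthesis genes 12 were lower, with a median of -0.40: the desaturase FADS2 was at -1.09, the elongase ELOVL6 at -0.90, the synthase FASN at -0.64 and the desaturase SCD at -0.50.

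Fatty acid oxidation genes divided, 6 of 17 higher and 9 lower, and they held the lowest named gene. The shares over all tested genes were 16.9% higher and 17.0% lower. FABP1, the fatty acid binding protein of liver (ENSG00000163586, chr2:88122982-88128116, - strand), had 24.0, 16.2 and 30.6 CPM with Guibi-tang and 105, 115 and 124 CPM with Saengmaek-san, a difference of -2.27 (adjusted p = 2.2e-18) and of -2.06 without Guibi-tang replicate 2. CPT1A, which admits fatty acids to mitochondria, went the other way, with 132, 167 and 135 CPM with Guibi-tang and 46.6, 50.0 and 49.6 CPM with Saengmaek-san, a difference of 1.57. CREB3L3, a liver transcription factor that partners PPARA, rose by 1.41.

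Messages of secreted liver proteins were lower with Guibi-tang. Of 15 plasma carrier genes 13 were lower (median -0.61), of 23 coagulation and complement genes 21 (median -0.48), and of 14 apolipoprotein genes 9, with 1 higher (median -0.37), which became 8 and 2 without Guibi-tang replicate 2. In the carrier, coagulation and complement, and fatty acid synthesis lists 0 members were higher by edgeR, at unadjusted p under 0.05 as well, and 0 by DESeq2. Albumin (ALB) had 6232, 5393 and 6593 CPM with Guibi-tang and 9723, 9619 and 10494 CPM with Saengmaek-san, a difference of -0.71 (adjusted p = 4.5e-16). Among carriers A1BG was lower at -1.20, transthyretin (TTR) at -0.84, TF at -0.83 and vitronectin (VTN) at -0.80. MBL2, the mannose-binding lectin that starts a complement path, was lower at -1.37, the fibrinogen chain FGB at -0.93 and complement factor B (CFB) at -0.70. The apolipoproteins APOA2 (-0.84), APOA5 (-0.83) and APOM (-0.77) and the cholesterol-esterifying enzyme LCAT (-0.69) were lower, and the lipase LIPC was higher (0.18), a call lost without Saengmaek-san replicate 2 (0.14 to 0.23). The plasma protein lists share members with the hepatocyte markers, whose sum was lower with Guibi-tang too. Fetal liver genes were among the lower ones too, 6 of 11 with 1 higher (6 and 0 without Guibi-tang replicate 2): AFP, the fetal counterpart of albumin, had 1520, 1335 and 1594 CPM with Guibi-tang and 3738, 3761 and 3957 CPM with Saengmaek-san, a difference of -1.36. The fetal growth factor IGF2 was lower at -1.22 and the imprinted PEG10 at -1.05. Of 14 hepatocyte transcription factors 2 were higher and 3 lower, and 1 and 2 without Guibi-tang replicate 2. The shares over all tested genes were 16.9% higher and 17.0% lower. TBX3 rose by 0.47, and FOXA1 (-0.51) and FOXA3 (-0.46) were among the lower ones. HNF4A was at 0.16 (adjusted p = 0.0131), and without Guibi-tang replicate 2 at 0.13 (adjusted p = 0.0855), a call also lost without Saengmaek-san replicate 1.

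Chaperones of the endoplasmic reticulum (ER), where secreted proteins fold, were lower in 10 of 18 and higher in 3, with a median of -0.32. The shares over all tested genes were 17.0% lower and 16.9% higher. HSPA5, the main ER chaperone BiP, had 809, 758 and 825 CPM with Guibi-tang and 1264, 1306 and 1288 CPM with Saengmaek-san, a difference of -0.69. CALR (-0.63), HSP90B1 (-0.62) and MANF (-0.60) were lower as well. The 3 higher members were DNAJB9 (0.36), DNAJC3 (0.16) and EDEM1 (0.16), and without Guibi-tang replicate 2 DNAJB9 alone was called higher (adjusted p = 0.238 for DNAJC3 and 0.206 for EDEM1). The DNAJB9 call was lost without Guibi-tang replicate 3 or Saengmaek-san replicate 1 (0.29 to 0.41). Targets of ATF4, the factor of the integrated stress response, were lower in 8 of 20 and higher in 4. The higher count is close to the share of 16.9% over all tested genes. The lower ones were led by amino acid synthesis, with PHGDH of serine synthesis at -0.77, ALDH18A1 of proline synthesis at -0.72 and SHMT2 at -0.49, and the higher ones included the transporter subunits SLC7A5 (0.44) and SLC3A2 (0.37). TRIB3, a pseudokinase that ATF4 induces, was at -0.22 (adjusted p = 0.0271), and without Guibi-tang replicate 2 at -0.16 (adjusted p = 0.202). That call was also lost without Guibi-tang replicate 1 or Saengmaek-san replicate 1 or 3 (-0.28 to -0.16).

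Heat shock genes of cytosol and mitochondria were lower in 8 of 19 and higher in 1, against 17.0% and 16.9% over all tested genes. HSPB1 was lower at -0.72, HSPA1B, a near copy of HSPA1A, at -0.37 and HSP90AB1 at -0.35, while DNAJB4 rose by 0.68. Proteasome subunits were higher in 10 of 20, by at most 0.30 (PSMC4, an ATPase of the cap), in 15 of 20 without Guibi-tang replicate 2, and in 6 without Guibi-tang replicate 3 or with only the compared groups in the fit. Of 15 autophagy genes 8 were higher and 1 lower, 6 and 0 without Guibi-tang replicate 2, and 5 were higher without a filter, after removal of a trend with GC content and length, or with only the compared groups in the fit. Among the higher ones were GABARAPL1 (0.78) and MAP1LC3B (0.42), both coats of autophagosomes, behind SQSTM1. Immediate early genes, which answer growth and stress signals, were higher in 11 of 20 and lower in 1, with a median of 0.40. DUSP5, a phosphatase of ERK, rose by 1.26, KLF6 by 0.74, EGR1 by 0.70 and JUN by 0.62, and DUSP6 (-0.30) was lower.

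Both glucose-induced arrestin genes of the lists were lower. TXNIP, a thioredoxin-binding protein (ENSG00000265972, chr1:145992435-145996600, - strand), had 10.4, 9.76 and 12.5 CPM with Guibi-tang and 31.8, 32.9 and 35.0 CPM with Saengmaek-san, a difference of -1.61 (adjusted p = 8.2e-19). Its relative ARRDC4 was lower at -0.80, and with glycolysis 10 of 16 genes were lower and 1 higher, including LDHA (-0.45) and, upward, PFKP (0.71). GCKR, the inhibitor of glucokinase, had 20.7, 21.1 and 21.8 CPM with Guibi-tang and 6.17, 6.04 and 5.95 CPM with Saengmaek-san, a difference of 1.81. Gluconeogenesis and FOXO targets divided 4 higher and 3 lower of 11, with KLF15 (0.45) and PPARGC1A (0.44) higher and PCK1 (-0.76), at under 3 CPM, lower. G6PC1 was at -0.69 with overlapping libraries and lost its call without Guibi-tang replicate 1 or 2 or Saengmaek-san replicate 3 (-0.94 to -0.35). Hypoxia genes divided 5 and 6 of 16, and the shares over all tested genes were 16.9% higher and 17.0% lower. CA12, at under 1 CPM, was highest at 1.34. CA9 was lowest at -1.50 (adjusted p = 0.0106), its libraries overlapped, and its call was lost without the same libraries (-2.21 to -0.43).

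The other lists moved less or in both directions, and their counts stand beside 16.9% higher and 17.0% lower over all tested genes. Wnt targets divided 5 and 5 of 14, with the stem cell receptor LGR5 (-0.77), the antagonist DKK1 (-0.71) and SP5 (-0.69) lower and TBX3 and MYC (0.28) higher. Bile acid genes were higher in 2 of 13 and lower in 5, but lower in 2 without Saengmaek-san replicate 1 or with only the compared groups in the fit, and in 3 without Guibi-tang replicate 1 or 3. The list had the transporter subunit SLC51B at 0.65, the phospholipid exporter ABCB4 at -0.67 and CYP8B1 at -0.43, a call lost without replicate 1 of either decoction (-0.52 to -0.29). CYP7A1, the rate-limiting enzyme of bile acid synthesis, was under 1 CPM with overlapping libraries (-1.10, adjusted p = 0.017), and its call was lost without replicate 1 or 3 of either decoction (-1.54 to -0.80). Acute phase and NF-kB genes were higher in 4 of 12 and lower in 3: HAMP and the apoptosis inhibitor BIRC3 (0.73) rose, and the chemokine CCL20 (-1.21) and IL32 (-0.25) were lower. The higher count was 2 without Guibi-tang replicate 1 or 3, and in fits of set 13 or of the compared groups only. Amino acid transporters were higher in 7 of 15 and lower in 3, with SLC43A1 at 0.29, and in 4 and 3 without Guibi-tang replicate 2. Ribosome biogenesis genes were higher in 4 of 20 and lower in 7, among them WDR12 (0.30) and NPM1 (-0.25). Without Saengmaek-san replicate 2 the higher count was 2, and with only the compared groups in the fit the lower count was 4.

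Counts of energy and metal genes depended on single libraries, and stand beside 17.0% lower and 16.9% higher over all tested genes. Mitochondrially encoded genes were lower in 7 of 13 with a median of -0.38 and MT-CO3 lowest (-0.55), in 5 without Guibi-tang replicate 2, and in 3 after removal of a trend with GC content and length. Nuclear genes of the respiratory chain were lower in 9 of 24 and higher in 1, with a median of -0.15, and in 5 and 2 without that library, with a median of -0.01. The lower count was 15 without Guibi-tang replicate 1 or 3 and 5 with only the compared groups in the fit. SDHA (-0.40) and ATP5F1A (-0.30) kept their calls without it, and NDUFB8 (-0.28) and NDUFA2 (-0.24) did not (adjusted p = 0.154 and 0.491). The NDUFA2 call was also lost without Saengmaek-san replicate 1 or 3 (-0.33 to -0.09). Metallothioneins and zinc transport genes were lower in 5 of 8 and higher in 1, and in 2 and 1 without that library. The lower count was 3 without Saengmaek-san replicate 1, and 2 without Saengmaek-san replicate 2 or with only the compared groups in the fit. MT1E was at -0.49 and -0.29 without it. Metallothionein genes share reads, so values of single genes are uncertain.

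Several of the highest and lowest genes belong to none of the lists. Upward were the monocarboxylate carrier family member SLC16A6 (1.85), the zinc finger gene ZNF114 (1.86), the small ion pump regulator FXYD1 (1.86), CYP19A1, the aromatase that makes oestrogens (1.74), the GTPase RAB31 (1.70), the interleukin-6 receptor IL6R (1.60) and the water channel AQP3 (1.59). CYP19A1 had 23.3, 23.6 and 24.4 CPM with Guibi-tang and 7.52, 6.84 and 6.89 CPM with Saengmaek-san. IL6R had 74.8, 90.0 and 77.0 CPM with Guibi-tang and 25.8, 27.6 and 26.2 CPM with Saengmaek-san. Downward, SCN1A, a sodium channel subunit known from neurons, had 9.29, 8.37 and 9.23 CPM with Guibi-tang and 38.1, 37.7 and 40.5 CPM with Saengmaek-san, a difference of -2.11. The basement membrane gene FREM1 was at -1.49, with 27.0, 26.3 and 27.2 CPM with Guibi-tang and 75.8, 73.9 and 76.9 CPM with Saengmaek-san. The homeobox gene HOXD1 (-1.71), the sulfatase ARSI (-1.69), the anion channel family member TTYH1 (-1.40), the ubiquitin-like UBD (-1.40), the amino acid carrier SLC6A14 (-1.38) and the dicarboxylate carrier SLC13A3 (-1.25) were lower too. None of the 14 highest and 14 lowest genes lost its call or turned direction in any of the alternative analyses run on it.

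At matched lower doses the decoctions differed less. At 100 ug/mL 670 genes (3.95%) were called, 352 higher (2.07%) and 318 lower (1.87%) with Guibi-tang, and at 20 ug/mL 7 genes (0.0412%), 6 higher (0.0353%) and 1 lower (0.00589%). No library is shared between these comparisons. Of the 670 genes 540 were also called at 500 ug/mL, where 33.8% of all tested genes were called. Of the 540, 524 had the same direction, which is 78.2% of the genes called at 100 ug/mL and 9.12% of those called at 500 ug/mL. The median absolute log2 difference of these 524 was 0.25 at 100 ug/mL and 0.52 at 500 ug/mL.

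Differences in NRF2 genes were present at the lower doses. At 100 ug/mL 22 of 27 were higher (median 0.33), and at 20 ug/mL 4 were higher (median 0.10). Of the 7 genes called at 20 ug/mL, 6 were higher with Guibi-tang: CYP1A1 (0.71), PTGR1 (0.49), AKR1B10 (0.47), AKR1C1 (0.39), AKR1C2 (0.38) and NQO1 (0.25). The cartilage matrix gene MATN3 (-0.30), which like NQO1 is named because it is among these 7, was lower. PTGR1 differed by 0.49, 1.43 and 2.74 at 20, 100 and 500 ug/mL. NQO1 took another course, with 0.25, 0.55 and 0.26. Of the mitosis genes 0 of 24 were called at 100 or 20 ug/mL by edgeR (list medians 0.03 at both). At 100 ug/mL 2 were higher and 1 lower at unadjusted p under 0.05, and DESeq2 called 1 higher. At 20 ug/mL 1 was higher at unadjusted p under 0.05 and DESeq2 called 0. TOP2A differed by -0.08 at 100 ug/mL (adjusted p = 0.478). Lower at 100 ug/mL were 1 of 24 cholesterol genes, 5 of 15 carrier genes and 7 of 23 coagulation and complement genes. Ribosome biogenesis genes were higher in 9 of 20 at 100 ug/mL and in 4 at 500 ug/mL. Heat shock genes, lower in 8 of 19 at 500 ug/mL, were higher in 3 and lower in 0 at 100 ug/mL (median 0.10). At unadjusted p under 0.05 by edgeR 8 were higher and 0 lower at 100 ug/mL, and DESeq2 called 4 higher and 0 lower.

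**Figure D3:**
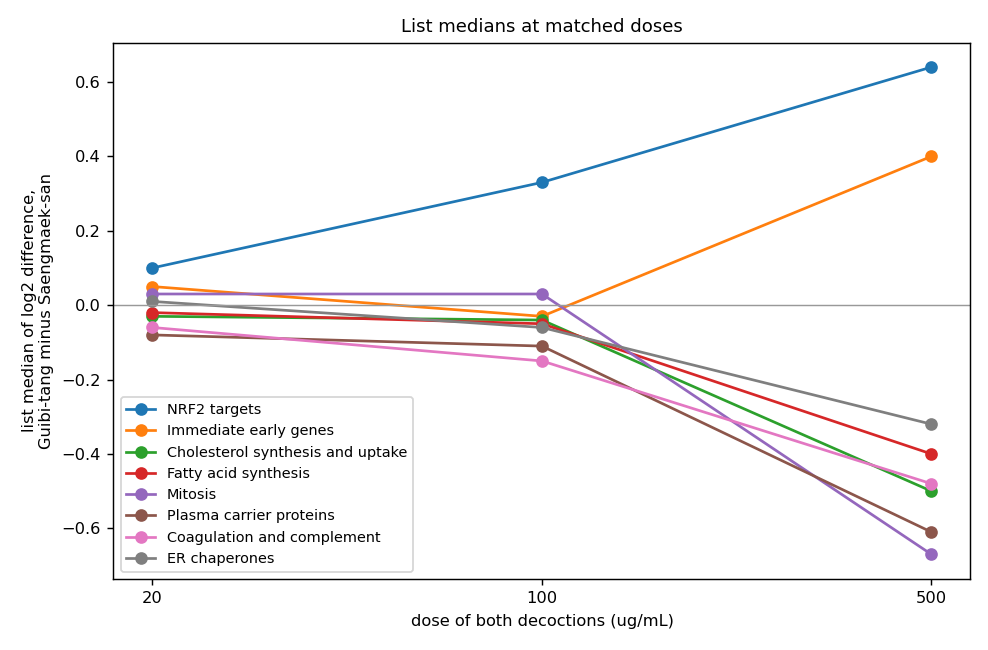
Median log2 difference, Guibi-tang minus Saengmaek-san (vertical axis), over the tested members of 8 gene lists at 20, 100 and 500 ug/mL of both decoctions (horizontal axis, equal steps). The NRF2 median is 0.10, 0.33 and 0.64, while the mitosis median is 0.03, 0.03 and -0.67.

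Levels within each decoction show which of them moved. Between 20 and 500 ug/mL 5821 genes (34.3%) were called with Guibi-tang and 74 (0.436%) with Saengmaek-san. The difference of these dose changes, tested as 1 contrast, was called in 3320 genes (19.6%), 1596 upward (9.40%) and 1724 downward (10.2%). In that contrast all 24 mitosis genes, 21 of 24 cholesterol genes and 12 of 14 fatty acid synthesis genes were lower, and 19 of 27 NRF2 genes were higher and 2 lower. These contrasts share the 500 ug/mL libraries with the main comparison, so their values are given beside it and not as further evidence. PLK1 averaged 264 ± 11.5, 277 ± 4.96 and 141 ± 7.33 CPM with Guibi-tang at 20, 100 and 500 ug/mL and 260 ± 9.46, 272 ± 3.97 and 273 ± 8.84 CPM with Saengmaek-san (SD, n = 3 each), beside 322 ± 4.69 CPM in vehicle. HMGCS1 averaged 512 ± 14.8, 470 ± 4.15 and 271 ± 1.19 CPM with Guibi-tang and 521 ± 9.61, 517 ± 11.5 and 459 ± 6.97 CPM with Saengmaek-san (SD, n = 3 each), beside 408 ± 32.6 CPM in vehicle. In neither gene did the Saengmaek-san change between 20 and 500 ug/mL pass the test (adjusted p = 0.746 for PLK1 and 0.222 for HMGCS1).

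Some genes moved with both decoctions. CYP1A1 changed between 20 and 500 ug/mL by 4.12 with Guibi-tang and by 2.09 with Saengmaek-san (adjusted p = 1.6e-19), and the difference of the changes was 2.03 (adjusted p = 3.3e-15). AKR1B10 changed by 1.57 and 0.72, AKR1C2 by 1.99 and 0.48, and NQO1 by 0.34 and 0.34. The metallothionein MT1X changed by -1.24 with Guibi-tang and -0.86 with Saengmaek-san, SLC13A3 by -1.53 and -0.45, and ARSI by -1.94 and -0.40.

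**Figure D4:**
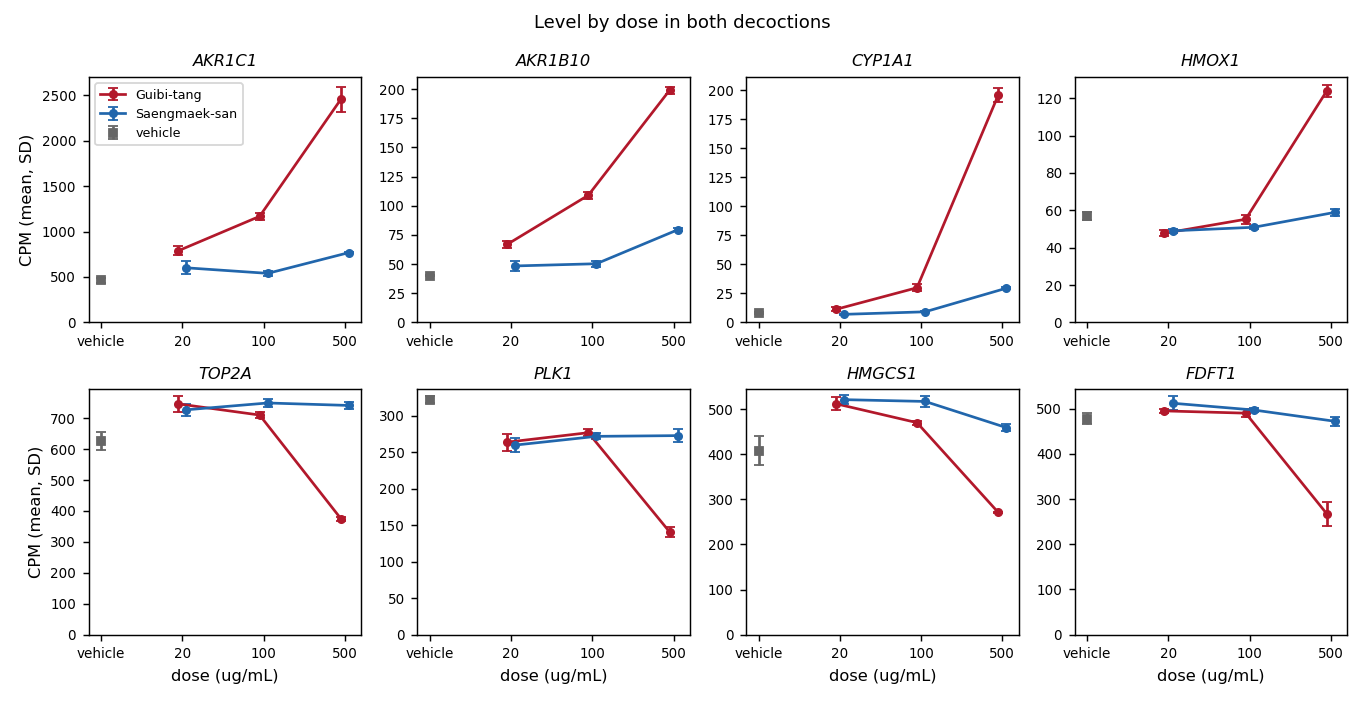
Mean level in CPM (vertical axis, from 0) of 8 genes in vehicle (grey square) and at 20, 100 and 500 ug/mL (horizontal axis, equal steps) of Guibi-tang (red) and Saengmaek-san (blue), with the SD of 3 libraries. AKR1C1 with Guibi-tang is 789, 1168 and 2457 CPM over the doses, whereas TOP2A is 746 and 710 CPM at the lower doses and 375 CPM at 500 ug/mL.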

How the data were processed

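Total RNA of HepG2 cells was made into directional libraries and read as 100 bp pairs, per the labels' protocols. FastQC 0.11.9, Trim Galore 0.6.5, STAR 2.7.3a, RSEM 1.3.3 and GRCh38 are named in the submitters' processing notes. The authors deposited RSEM expected counts for each gene, with no normalization. As 9.97% were not whole, all were rounded. Which annotation release and strand setting the counting had is not given in the sources used here, so overlapping and near-copy genes are uncertain. GENCODE 29 holds 57055 of 60675 gene IDs, and 41706 IDs had a symbol.

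The fit used edgeR 4.0.16 in R 4.3.3 (limma 3.58.1), with TMM scaling, filterByExpr at a minimum count of 10, and 57 libraries in 22 groups (35 residual degrees of freedom, coefficient of variation 4.65%), so that groups share 1 estimate of the spread. Genes were called at a Benjamini-Hochberg adjusted p under 0.05 over 16982 genes per contrast. The steps were tested on simulated data.

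Genes named are the 14 highest and 14 lowest called protein-coding genes with groups that do not overlap and at least 5 CPM in the higher group, then up to 4 called members of each of 33 lists, then 8 panel genes. A few that the rule selects are left unreported. Other list members and genes called at 20 ug/mL are named where a count or a promoter turns on them, and those were chosen after their values were seen. The comparison and lists were chosen with earlier results of these data known. The alternatives tried were RLE scaling, DESeq2 1.42.0, a stricter filter (mean of 1 CPM) or none, fits of set 13 or of the groups compared only, the replicate number as a block, removal of a GC and length trend (known for 99.3% of tested genes), and each library left out in turn.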

Additional observations from a re-analysis of the deposited data

Results flagged for a closer look

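The change between 20 and 500 ug/mL differed between Guibi-tang and Saengmaek-san in 3320 genes (edgeR quasi-likelihood test of the difference, Benjamini-Hochberg adjusted p under 0.05). Of the 74 genes called between these doses with Saengmaek-san, 66 were called with Guibi-tang too, and 3 of them in the opposite direction. Over all tested genes 34.3% were called with Guibi-tang between these doses. ANKRD1, a target of the YAP coactivator, changed by 1.04 with Guibi-tang and -0.30 with Saengmaek-san (adjusted p of the difference 7.2e-16). TNS4, an adhesion adaptor, changed by 0.45 with Guibi-tang and -0.51 with Saengmaek-san, and PTMA, prothymosin alpha, by -0.29 with Guibi-tang and 0.24 with Saengmaek-san. These 3 genes were picked for their opposite signs after the values were seen.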

How the results depend on the processing

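At 500 ug/mL the count of called genes was 5295 with DESeq2, 5264 without a filter, 4655 with only the groups compared in the fit and 6352 after removal of the GC and length trend, against 5744, and 4868 to 5442 with a library left out. At 100 ug/mL it was 1544 with only the groups compared, 1281 after removal of the trend and 356 to 527 with a library left out, against 670, and at 20 ug/mL 12 with DESeq2, 139 without a filter and 14 after removal of the trend, against 7. The causes were not tested. With a filter at a mean of 1 CPM the genes at least 2-fold higher and lower were 103 and 97, against 224 and 199. That filter leaves out genes of low level, and whether these account for the drop was not tested. With the replicate number as a block 5875 genes were called at 500 ug/mL. Correlations of deviations at that dose were 0.08, -0.05 and 0.05 between same-numbered libraries, and -0.18 to 0.11 between the others. With 3 libraries a group and Guibi-tang replicate 2 standing apart, they cannot decide whether the numbers mark pairs. Of 149 called genes named, 129 kept call and direction under every alternative run, and none reversed. Of 504 counts of list members 479 stayed within 1.5 times. Genes under about 1 CPM rest on few counts, and 3 libraries a group limit all of these values.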

Other observations

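The series also holds single herbs, among them Polygalae Radix and Aucklandiae Radix, which traditional recipes of Guibi-tang contain. The labels do not give the composition of the decoctions used. High against low dose changes of the herbs share no library with the comparison of Guibi-tang and Saengmaek-san, and are set beside it as a description across genes, which are not independent replicates. Over 16982 tested genes Pearson's r was 0.30 for Aucklandiae Radix, 0.17 for Polygalae Radix, 0.19 for Menthae Herba and 0.05 for Saposhnikoviae Radix, and Spearman's rho 0.38, 0.23, 0.21 and 0.06 in the same order. Over the 5744 genes called between the decoctions r was 0.56, 0.33, 0.39 and 0.18, a restriction chosen after seeing the data. The dose changes are 280 against 11.2 ug/mL for Aucklandiae Radix and 250 against 10 ug/mL for Polygalae Radix, with 2 libraries at each dose, and 500 against 20 ug/mL for Menthae Herba and Saposhnikoviae Radix, the doses of the decoctions, with 3 libraries at each dose.

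Values of single genes over the same doses stand beside these. PTGR1 changed by 2.38 with Aucklandiae Radix (n = 2 libraries a dose for both herbs) and -0.97 with Polygalae Radix, beside 2.74 between the decoctions, and SQSTM1 by 1.91 and 0.31, beside 1.18. CYP1A1 changed by 0.69 with Aucklandiae Radix and 3.52 with Polygalae Radix, beside 2.73. HMGCS1 changed by 0.25 and -2.21, beside -0.76. Other genes higher with Guibi-tang fell with both herbs: GSTA1 changed by -1.94 and -1.78, beside 1.65, and SULT2A1 by -2.49 and -1.64, beside 0.91.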
